A study of Mus musculus with 44 samples.

Results

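Lightly fixed and unfixed chromatin were compared in 4 NG Capture-C libraries of mouse erythroid cells, 2 from unfixed cells (0% formaldehyde) and 2 from cells fixed with 0.5% formaldehyde. They are 4 of the 44 samples of the series and 4 of its 14 fixation libraries, and were chosen by the formaldehyde concentration in their labels, not by any measured value. All 4 came from Ter-119+ cells selected from the spleens of phenylhydrazine-treated female C57BL/6 mice, a treatment that fills the spleen with erythroid precursors. Each library was read from 3 viewpoints, the paired promoters of α-globin (genes Hba-a1, Hba-a2), the paired promoters of adult β-globin (genes Hbb-b1, Hbb-b2) and the promoter of Slc25a37, which encodes the mitochondrial iron importer mitoferrin-1. The replicates of a concentration are technical, so tests here measure the spread between libraries and not between animals. The unfixed cells were also handled differently, since they went into digestion straight from Dounce homogenization, skipping the spin that fixed cells received in between. The effects of fixation and of this handling cannot be told apart.

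In chromosome conformation capture (3C), chromatin is cut with a restriction enzyme, here DpnII, and the ends are ligated, so that fragments held close in the nucleus are joined more often than distant ones. Formaldehyde holds the cut fragments together during ligation, while loose fragments join at random, mostly with fragments of other chromosomes. In erythroid cells the α-globin genes contact enhancers in and beside the neighbouring Nprl3 gene, and the adult β-globin genes contact the locus control region (LCR), which lies beyond the embryonic globin genes. Interactions on the viewpoint chromosome are called cis, those within 250 kb of the viewpoint local, and those on other chromosomes trans.

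The sequences upstream of the captured globin genes are shown because the interactions of both genes of a pair were counted together, and because a related gene of the β-globin cluster returns below. They are the 250 bases before each transcription start in RefSeq (GRCm38.p6), written 5′ to 3′ on the strand of the gene, with the DpnII site GATC in capitals. Hba-a1 lies at chr11:32283422-32283671 on the plus strand, and Hbb-bs at chr7:103827929-103828178, Hbb-bt at chr7:103813924-103814173 and Hbb-y at chr7:103853208-103853457 on the minus strand. RefSeq lists the adult β-globin pair as Hbb-bs and Hbb-bt.
Hba-a1: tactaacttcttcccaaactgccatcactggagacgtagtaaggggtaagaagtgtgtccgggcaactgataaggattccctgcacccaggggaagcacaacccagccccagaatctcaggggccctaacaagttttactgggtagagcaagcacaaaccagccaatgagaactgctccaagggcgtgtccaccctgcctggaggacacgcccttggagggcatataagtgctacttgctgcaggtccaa
Hbb-bs: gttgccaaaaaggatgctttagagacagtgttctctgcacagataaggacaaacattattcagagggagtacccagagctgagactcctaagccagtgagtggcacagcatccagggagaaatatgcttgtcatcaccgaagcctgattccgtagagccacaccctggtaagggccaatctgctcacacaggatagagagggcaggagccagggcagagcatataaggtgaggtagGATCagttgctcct
Hbb-bt: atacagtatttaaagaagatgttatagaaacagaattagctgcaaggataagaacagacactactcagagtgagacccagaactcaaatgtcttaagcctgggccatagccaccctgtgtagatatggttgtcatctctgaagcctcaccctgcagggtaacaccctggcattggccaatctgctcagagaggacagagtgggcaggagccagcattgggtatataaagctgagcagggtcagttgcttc
Hbb-y: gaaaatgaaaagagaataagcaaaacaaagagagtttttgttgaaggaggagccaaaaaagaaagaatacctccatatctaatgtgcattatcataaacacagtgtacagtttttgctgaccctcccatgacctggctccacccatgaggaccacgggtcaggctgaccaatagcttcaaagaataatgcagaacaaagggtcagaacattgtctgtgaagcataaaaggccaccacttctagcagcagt
The stretch of Hba-a2, at chr11:32296242-32296491 on the plus strand, aligned with that of Hba-a1 over 247 bases, of which 100% were identical. The adult β-globin pair had 77.4% identical bases over 239 aligned bases. Hbb-y, the embryonic gene nearest to the LCR, had 69.1% identical bases with Hbb-bs over 217 aligned bases, and Hbb-bh2 78.7% over 183. Gaps, which these percentages leave out, took 22 bases in the adult pair, 66 with Hbb-y and 134 with Hbb-bh2. The percentages thus do not rank the genes by likeness to Hbb-bs. A GATC stood in the stretch of Hbb-bs only among these genes, and in 41.9% of all 32851 RefSeq stretches of this length.

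The deposited tables gave the number of unique interactions of a viewpoint with each restriction fragment, in mm9 coordinates. From α-globin the libraries held 94562 to 129089 unique interactions, from β-globin 94768 to 126341, and from Slc25a37 34836 to 57121. In every viewpoint, the second 0.5% library held the fewest. The viewpoints themselves are not listed in the tables and were located as the gaps flanked by the most interactions at 2% formaldehyde. These gaps were chr11:32182317-32184781 and chr11:32194990-32197598 for α-globin, chr7:110961283-110963273 and chr7:110975292-110977138 for β-globin and chr14:69902161-69904393 for Slc25a37. Distances were measured to the nearest gap centre. Of the trans fragments with counts, 25.2% to 36.1% held exactly 2 interactions in the globin tables, against 4.14% to 5.51% in the Slc25a37 table. Globin counts may thus not all be independent, and the cause of this difference was not tested. The intervals below cover counting error at most. They treat counts as independent, so where they use globin counts they may be too narrow even for that.

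Light fixation raised the share of cis interactions by 4.48-fold to 6.51-fold and that of local interactions by 39.1-fold to 74.6-fold. The cis share of the unfixed libraries was 5.71% and 5.72% at α-globin, 6.00% and 6.25% at β-globin and 4.36% and 4.65% at Slc25a37. The corresponding 0.5% libraries gave 32.1% and 26.0% at α-globin, 31.3% and 23.5% at β-globin and 31.9% and 26.8% at Slc25a37. The groups did not overlap at any viewpoint, and the first 0.5% library was above the second at all 3. The mean ratio of the cis share was 5.09 at α-globin, 4.48 at β-globin and 6.51 at Slc25a37.

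**Figure D1:**
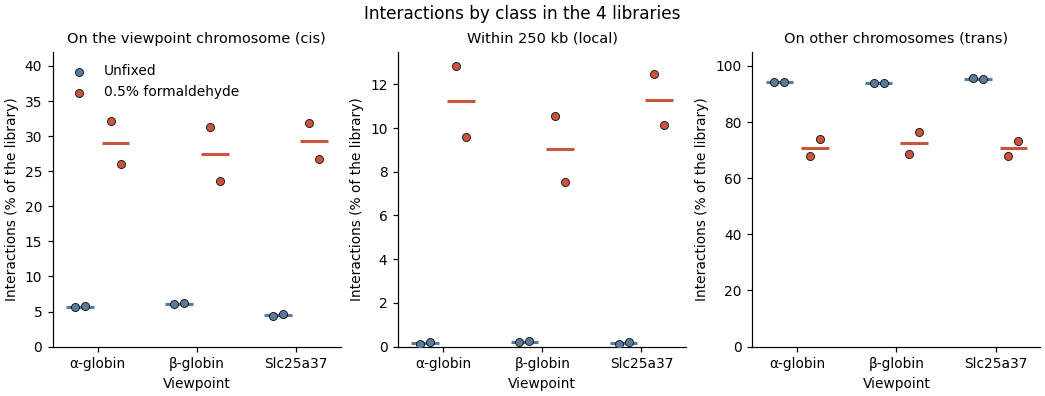
Percentage of unique interactions in cis, within 250 kb (local) and in trans, for each viewpoint. Points are libraries and bars the mean of 2 libraries; blue is unfixed and red 0.5% formaldehyde. The local share lies between 0.110% and 0.243% in unfixed libraries and between 7.52% and 12.8% in 0.5% libraries.

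Local interactions were rare without formaldehyde. At α-globin 149 and 261 local interactions were counted in the unfixed libraries, which is 0.116% (95% exact interval 0.0978% to 0.136%) and 0.230% (0.203% to 0.260%) of the library. At 0.5% there were 16583 and 9064, or 12.8% and 9.59%. At β-globin the local share went from 0.219% and 0.243% to 10.6% and 7.52%. At Slc25a37 it went from 0.110% and 0.193%, resting on 63 and 92 interactions, to 12.4% and 10.2%. The unfixed α-globin libraries differed from each other by more than their counting intervals. So did those of Slc25a37 (0.0848% to 0.141% and 0.155% to 0.236%), and the second library was the higher at both viewpoints. All unfixed libraries still lay far below the 0.5% libraries. Trans interactions fell in exchange, from 94.3% ± 0.00561 to 70.9% ± 4.34 at α-globin, from 93.9% ± 0.170 to 72.6% ± 5.48 at β-globin and from 95.5% ± 0.208 to 70.7% ± 3.65 at Slc25a37 (SD, n = 2 libraries). In each of these 9 comparisons the exact two-sided permutation test gave p = 0.333, which is the smallest p that 2 libraries against 2 can give, and the same after Benjamini-Hochberg adjustment. In no case can this design pass a threshold of 0.05.

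To set the unfixed interactions against random ligation, the interactions of the other 2 viewpoints with the same stretch of chromosome were counted in the same libraries. To these viewpoints the stretch is in trans. Both counts were expressed per 100000 trans interactions of their viewpoint. The ratios and intervals given for unfixed cells pool both unfixed libraries, so the intervals do not cover the difference between these libraries. Beyond 1 Mb, the unfixed cis interactions of a viewpoint were about as frequent as those of the other viewpoints. Between 1 and 10 Mb the ratio of own to other was 1.01 at α-globin (95% exact interval 0.949 to 1.08), 1.04 at β-globin (0.983 to 1.10) and 1.06 at Slc25a37 (0.983 to 1.14). Over 10 Mb it was 1.05 (1.02 to 1.07), 1.02 (1.001 to 1.049) and 0.959 (0.925 to 0.994). These ratios lay within a few percent of 1, although none of their counting intervals includes 1.

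Closer to the viewpoints the unfixed libraries rose above this background, with intervals above 1 at all 3 viewpoints only under 100 kb. From 250 kb to 1 Mb the ratio was 1.21 (1.01 to 1.46) at α-globin, 1.04 (0.838 to 1.30) at β-globin and 1.24 (0.960 to 1.59) at Slc25a37. From 100 to 250 kb it was 1.62 (1.07 to 2.45), 1.52 (0.967 to 2.39) and 1.26 (0.781 to 1.96). From 50 to 100 kb it was 3.04 (1.84 to 5.17), 3.80 (2.09 to 7.24) and 2.81 (1.55 to 4.98). Under 10 kb it was 48.1 (20.2 to 150.2) at α-globin, 79.6 (26.8 to 390.1) at β-globin and 40.9 (16.3 to 132.0) at Slc25a37. These last ratios rest on 5, 3 and 5 interactions of the other viewpoints. The ratio of the unfixed libraries to random ligation was thus highest close to each viewpoint, and beyond 1 Mb no upper bound exceeded 1.14. In number, the own interactions exceeded those of the other viewpoints by 148.9 per 100000 trans interactions under 100 kb and by 224.6 over 10 Mb at α-globin. At β-globin the excess was 219.2 and 136.0, and at Slc25a37 119.4 and -144.9, so over 10 Mb its sign differed between viewpoints. The local share of the unfixed libraries was 0.450% of that of the 2% libraries at α-globin, 0.691% at β-globin and 0.405% at Slc25a37. Whether reads of other libraries sequenced with them contributed to these few interactions was not tested.

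**Figure D2:**
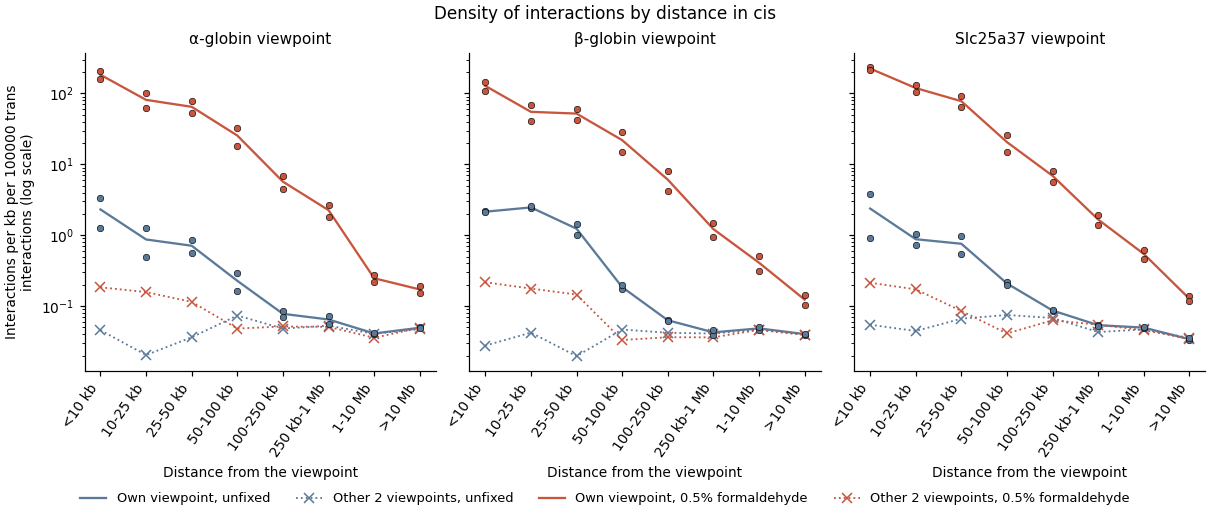
Interactions per kb of sequence and per 100000 trans interactions (log scale) by distance from the viewpoint. Solid lines are the means of a viewpoint's own interactions and points the libraries; dotted lines with crosses are the means of the other 2 viewpoints with the same stretch; blue is unfixed and red 0.5% formaldehyde. The unfixed line meets the dotted lines beyond 1 Mb (ratios 0.959 to 1.06), whereas the 0.5% line stays above them at every distance.

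What 0.5% formaldehyde added was spread over all distances in cis. At α-globin the mean number of interactions per 100000 under 10 kb went from 71.4 ± 45.0 to 4243 ± 476, or 59.4-fold (SD, n = 2). From 10 to 25 kb it went from 24.6 ± 15.1 to 1710 ± 457 (69.4-fold), and from 50 to 100 kb from 21.4 ± 8.37 to 1785 ± 601 (83.2-fold). The rise lessened with distance beyond 250 kb, to 26.0-fold from 250 kb to 1 Mb, 4.50-fold from 1 to 10 Mb and 2.60-fold over 10 Mb. At Slc25a37 the interactions under 10 kb went from 45.4 ± 39.4 to 3168 ± 14.7 (69.8-fold). From 10 to 25 kb they went from 25.2 ± 5.87 to 2516 ± 285.8 (100.0-fold) and from 100 to 250 kb from 24.8 ± 0.429 to 1450 ± 281.2 (58.5-fold). Beyond 250 kb the rise was again smaller, at 22.8-fold, 8.05-fold and 2.75-fold in the same 3 bands. The folds closest to the viewpoints were the least precise: without the first or the second unfixed library, the rise under 10 kb was 41.1-fold or 107.2-fold at α-globin and 43.2-fold or 181.0-fold at Slc25a37, and that from 10 to 25 kb at α-globin 48.4-fold or 122.4-fold. At the same far distances β-globin rose 21.9-fold, 6.46-fold and 2.35-fold. The lower 0.5% library was above the higher unfixed library in all cis bands of all 3 viewpoints, and the exact permutation test gave p = 0.333 in each of the 27 bands, trans included.

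Much of the added material was far away. Per 100000 trans interactions, 44.8% of the cis interactions gained at α-globin lay within 250 kb and 45.9% beyond 1 Mb. At β-globin the shares were 39.0% and 55.4%, and at Slc25a37 43.0% and 50.4%. Even over 10 Mb away, the 0.5% libraries held 3.47 times as many interactions as the other viewpoints made with the same stretch at α-globin, 3.13 times at β-globin and 3.68 times at Slc25a37.

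The β-globin viewpoint departed from the others close by. From 10 to 25 kb its unfixed libraries held 67.4 and 71.7 interactions per 100000, against 13.97 and 35.3 at α-globin and 21.0 and 29.3 at Slc25a37, and its rise was 17.0-fold. From 25 to 50 kb it was 32.2-fold, and from 50 to 100 kb 90.0-fold. The dip lay in single fragments. Of the 1093 listed local fragments of β-globin, 4 on the higher-coordinate side held 134 of 266 local interactions in the first unfixed library and 134 of 292 in the second, which is 50.4% and 45.9%. In the 0.5% libraries the same 4 held 2.96% and 3.35% of the local interactions. They were set apart after their values were seen, as fragments with 12 or more interactions in the unfixed libraries together and a rise of less than 10-fold.

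The fragment chr7:110991221-110991652 held 52 and 55 interactions in the unfixed libraries, or 42.7 and 45.9 per 100000, and 74.4 and 67.5 per 100000 at 0.5%. This 1.60-fold rise passed the test across all fragments (log2 fold change 0.68 ± 0.31 (SE), adjusted p = 0.027, edgeR), although it is far below that of its neighbours. The fragment chr7:111001278-111001694 held 25.5 and 28.3 per 100000 unfixed and 49.9 and 32.7 at 0.5% (1.53-fold, adjusted p = 0.201). The fragment chr7:110981990-110983085 went from 31.2 and 27.5 to 108.4 and 99.2 per 100000 (3.54-fold), and chr7:110988558-110989412 from 10.7 and 10.0 to 79.9 and 52.8 (6.42-fold). In all 4 the replicates of the unfixed cells lay close together, and in none did the groups overlap on this scale.

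The centres of these 4 fragments lay 6.32, 12.8, 15.2 and 25.3 kb above the centre of the upper β-globin viewpoint. In RefSeq (GRCm38.p6), the upper ends of the pseudogene Hbb-bh3 and of the globin genes Hbb-bh2, Hbb-bh1 and Hbb-y lie 5.80, 12.8, 15.2 and 25.3 kb above that of Hbb-bs. The 2 sets of distances start from unlike points, the centre of a gap and the end of a gene, so they can be compared only roughly. Positions were not converted between the builds, so whether the fragments overlap these relatives of the captured genes was not tested. The other 2 viewpoints held 0 and 3 interactions with the 4 fragments in the unfixed libraries and 3 and 5 at 0.5%. The same limits were met by 1 fragment in trans, chr2:144998571-144998689, with 50 and 70 interactions from β-globin in the unfixed libraries and 30 and 35 at 0.5%. Its share was 41.1 and 58.4 per 100000 unfixed against 23.7 and 36.9 at 0.5%, a log2 fold change of -0.72 ± 0.43 that did not pass the test (adjusted p = 0.093, edgeR). It was the only trans fragment of any viewpoint with a mean count of 5 or more. Without these 5 fragments the β-globin bands rose 77.7-fold under 10 kb, 70.2-fold from 10 to 25 kb and 58.9-fold from 25 to 50 kb. The fragments were chosen for a small rise, so leaving them out raises these folds by construction.

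Among single fragments with a mean of 5 or more interactions over the 4 libraries, all 292 of α-globin were higher at 0.5% (background of calls 100%), 244 of 246 of β-globin (99.2%) and all 125 of Slc25a37 (100%), by edgeR's quasi-likelihood test with library totals and an adjusted p under 0.05. None was lower by this test (0%), and none was lower at an unadjusted p under 0.05; DESeq2 also called none lower. Nearly all of these fragments passed the filter through their 0.5% counts, so that they rose is no finding about them. The median log2 fold change was 6.48 at α-globin, 6.56 at β-globin and 6.59 at Slc25a37. Where the scaling was taken from the tested fragments themselves (TMM), 0 fragments were called at α-globin (26 higher and 0 lower at an unadjusted p under 0.05). At Slc25a37 0 were called (12 and 1), while 11 were called higher and 5 lower at β-globin. The median log2 fold change with TMM was still 5.34 at α-globin, 5.49 at β-globin and 5.49 at Slc25a37. The few calls thus do not mean that the fragments did not rise. Without the first or the second 0.5% library, 0 β-globin fragments were called higher by edgeR (119 and 109 at an unadjusted p under 0.05).

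**Figure D3:**
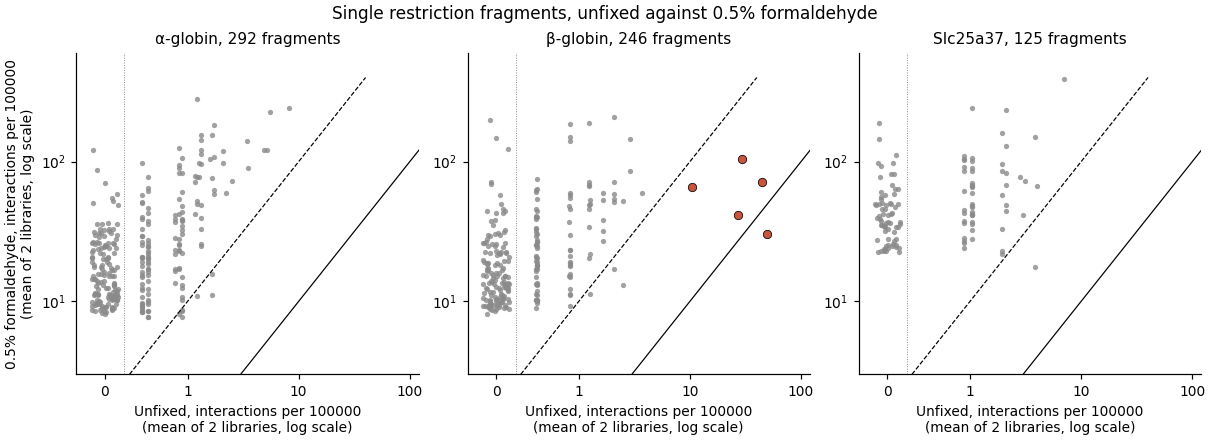
Interactions per 100000 of the tested restriction fragments in unfixed (x) and 0.5% (y) libraries, as means of 2 libraries on log scales. Fragments with 0 unfixed interactions are spread left of the dotted line; the solid line marks equal shares and the dashed line a 10-fold rise. The 5 red β-globin fragments lie to the right of the 10-fold line, and 1 of them below the line of equal shares.

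The fragments that gained most at 0.5% lay next to the viewpoints. At α-globin, chr11:32185293-32185902, 2.05 kb from the nearest viewpoint and between the pair, held 2 and 1 interactions unfixed and 379 and 256 at 0.5%, the highest mean share of all local fragments (282.2 per 100000, 231.8-fold). It was followed by chr11:32192981-32194503 (5 and 14, then 314 and 228) and chr11:32184782-32185213 (4 and 9, then 290 and 219), both near the inner edges of the pair. At β-globin, chr7:110974331-110974901 led with 1 and 4 interactions unfixed and 255 and 204 at 0.5% (208.6 per 100000). At Slc25a37, chr14:69900630-69901406 led with 2 and 5 unfixed and 175 and 150 at 0.5% (387.5 per 100000). These 3 leaders ranked 4, 1 and 1 among local fragments at 2% formaldehyde. The 10 local fragments with the most interactions at 0.5% held 15.6% of the local interactions at α-globin, 17.3% at β-globin and 16.0% at Slc25a37, so the gain was spread over many fragments.

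Many local fragments were counted only in the 0.5% libraries, which held far more local interactions. Of 1119 listed local fragments of α-globin, 203 had an interaction in either unfixed library, 40 in both unfixed libraries and 652 in both 0.5% libraries. The corresponding numbers were 163, 36 and 609 of 1093 at β-globin and 121, 13 and 525 of 1183 at Slc25a37. Fragments with at least 10 interactions in each 0.5% library numbered 210 at α-globin, 171 at β-globin and 93 at Slc25a37. Of these, 94, 82 and 44 had 0 in both unfixed libraries. Among all tested fragments 147 of 292, 139 of 246 and 70 of 125 had 0 unfixed interactions. With so few unfixed local interactions, a 0 does not set a fragment apart. At α-globin 67 of the 94 lay on the lower-coordinate side, where Nprl3 lies, and at β-globin 49 of the 82 on the higher-coordinate side, towards the embryonic genes and the LCR. The α-globin and β-globin counts are 71.3% and 59.8% of such fragments, against 52.3% and 45.7% of all listed local fragments on the same sides, and 68.6% and 64.9% of all fragments with at least 10 interactions in each 0.5% library, seen without fixation or not. At Slc25a37 they were split evenly, 22 on each side.

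Fragments with 0 unfixed interactions were compared with a floor of 3 interactions over both unfixed libraries. A count of 0 does not prove a true number under 3, so these folds are no proven minimum. The fragments were also picked by their 0 unfixed and high 0.5% counts, which favours high folds. The ones with the highest shares at 0.5% lay mostly within 10 kb of a viewpoint. At α-globin chr11:32200470-32203107 held 194 and 88 interactions at 0.5%, 101.8-fold over the floor, and chr11:32168682-32169411, 14.5 kb away on the lower side, held 125 and 73 (71.5-fold). At β-globin chr7:110973665-110974330 held 264 and 181 (162.1-fold over the floor) and chr7:110959283-110961282 185 and 139 (118.0-fold). At Slc25a37 chr14:69898388-69899249 held 91 and 69 (65.3-fold over the floor) and chr14:69922731-69923658, 19.9 kb away on the higher side, 52 and 33 (34.7-fold). Beyond 100 kb the fragments with the smallest adjusted p also had 0 unfixed interactions, such as chr11:32068898-32070070 with 28 and 13 at 0.5% and chr7:111085419-111086460 with 29 and 14. No Slc25a37 fragment beyond 100 kb reached a mean count of 5.

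The local profiles were then compared for their lean to one side. At α-globin, 12 to 40 kb from the viewpoints, the lower-coordinate side that holds the enhancers had 35 and 51 interactions in the unfixed libraries, and the higher-coordinate side 8 and 15. At 0.5% these were 3100 and 1924 against 1356 and 550. The enhancer side thus took 81.4% (95% exact interval 66.6% to 91.6%) and 77.3% (65.3% to 86.7%) unfixed, and 69.6% and 77.8% at 0.5%. The log2 ratio of the sides was 1.90 ± 0.23 unfixed and 1.499 ± 0.433 at 0.5%, so the groups overlapped (exact permutation p = 0.667, n = 2 against 2).

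At β-globin, 25 to 65 kb from the viewpoints, the side of the LCR had 62 and 75 unfixed interactions against 4 and 10 on the other side, and 2588 and 1530 against 946 and 400 at 0.5%. The log2 ratio went from 3.32 ± 0.67 to 1.69 ± 0.34, with no overlap of the groups (exact permutation p = 0.333, the smallest possible). Without the fragments set apart above, 1 of which lies in this range, the unfixed ratio was 2.395 ± 0.583 against 1.66 ± 0.35. That fragment lies on the side of the LCR, so leaving it out can only lower the ratios. At Slc25a37, 10 to 50 kb away, the higher-coordinate side had 19 and 23 unfixed interactions against 8 and 13, and 1494 and 956 against 1472 and 664 at 0.5%. The log2 ratio was 1.00 ± 0.28 unfixed and 0.27 ± 0.36 at 0.5% (exact permutation p = 0.333), with no overlap of the groups. At 2% formaldehyde the ratios were 2.43 ± 0.50 at α-globin, 2.82 ± 0.46 at β-globin and 1.06 ± 0.46 at Slc25a37.

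**Figure D4:**
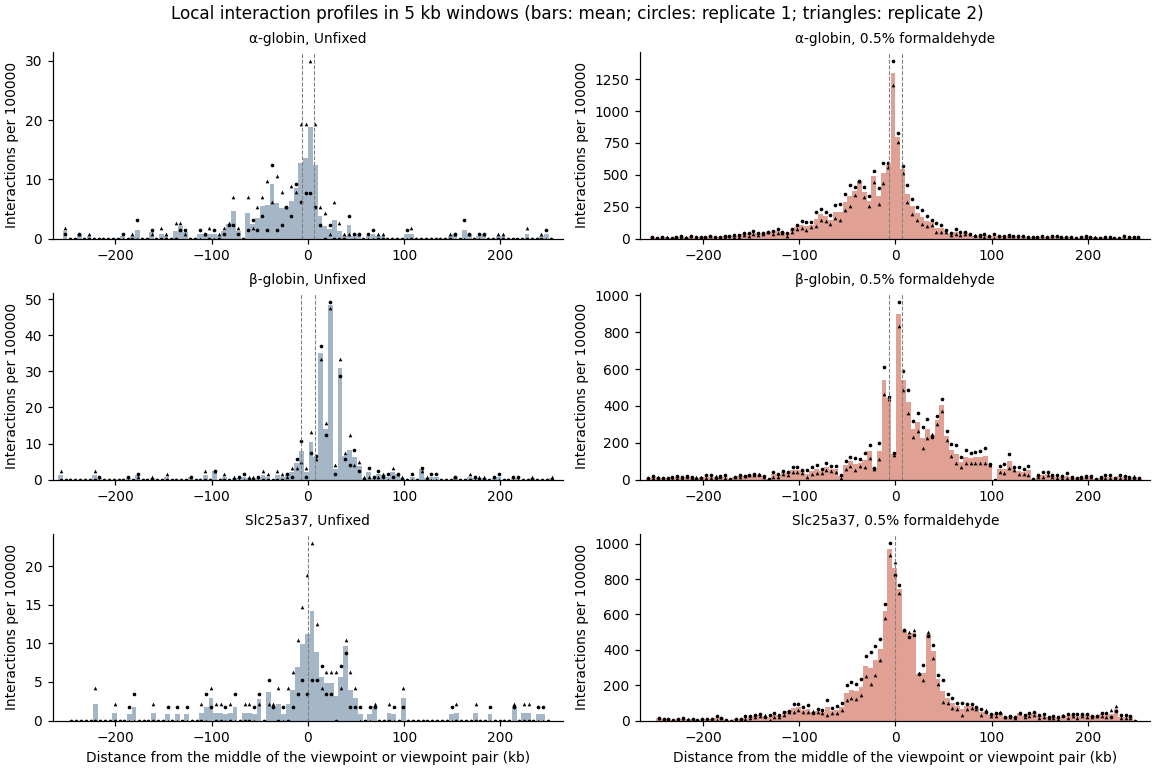
Interactions per 100000 in 5 kb windows within 250 kb of the viewpoints, unfixed (blue, left) and 0.5% formaldehyde (red, right), on separate scales. Bars are means, circles the first and triangles the second replicate, and dashed lines the viewpoint centres. The unfixed β-globin profile is led by windows with 117, 85 and 75 interactions in both libraries together, and these do not lead the profile at 0.5%.

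In windows of 5 kb, the local profile of a 0.5% library correlated with the mean profile of the 2% libraries with r = 0.937 and 0.933 at α-globin, 0.921 and 0.931 at β-globin and 0.945 and 0.959 at Slc25a37. The unfixed libraries gave r = 0.842 and 0.809 at α-globin, 0.500 and 0.556 at β-globin and 0.766 and 0.863 at Slc25a37, over 100 to 103 windows per viewpoint. These are correlations across windows of one library, which share their distance to the viewpoint, and are given as a description. At β-globin the mean r of the unfixed libraries was 0.845 without the fragments set apart above. These had been chosen after their values were seen, for a small rise. The 3 windows with the most unfixed interactions adjoined or lay between the viewpoints at α-globin (44, 32 and 30 in both libraries together) and adjoined the viewpoint at Slc25a37 (14, 11 and 10). At β-globin they were the windows 16.3, 6.29 and 26.3 kb above the upper viewpoint, with 117, 85 and 75 interactions.

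Away from the viewpoints, the highest windows at 0.5%, picked out after their values were seen, stood on the sides named above. Beyond 20 kb at α-globin the highest was chr11:32150001-32155000, 31.0 kb below the pair, with 583 and 425 interactions at 0.5% and 16 and 7 unfixed. At β-globin it was chr7:111015001-111020000, 41.3 kb above the pair, with 554 and 355 against 10 and 5. At Slc25a37 it was chr14:69935001-69940000, 34.2 kb above, with 243 and 175 against 4 and 2. Over all windows of the viewpoint chromosome with a mean count of 5 or more, which most windows too reached through their 0.5% counts, 213 of 219 were higher at 0.5% at α-globin (97.3%), 171 of 178 at β-globin (96.1%) and 79 of 79 at Slc25a37 (100%), and none was lower (0%; edgeR, 0 also at an unadjusted p under 0.05, and 0 by DESeq2). With TMM scaling 5 windows were called higher and 0 lower at α-globin, 7 and 2 at β-globin and 0 and 0 at Slc25a37. Without the first 0.5% library 24 windows of β-globin were called higher, and without the second 51.

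The restriction fragments contacted in the 0.5% libraries were also longer than those contacted in the unfixed libraries. In cis beyond 1 Mb, the median length of the contacted fragment, counted per interaction, was 234 and 241 bp in the unfixed libraries and 605 and 578 bp at 0.5% from α-globin. From β-globin it was 246 and 242 bp against 608 and 559 bp, and from Slc25a37 207 and 235 bp against 643 and 620 bp. Fragments under 200 bp took 43.8% of these interactions unfixed and 16.5% at 0.5% at α-globin, 42.3% and 16.4% at β-globin and 46.0% and 13.97% at Slc25a37. In trans the shift was smaller, from 226 and 235 bp to 291 and 268 bp at α-globin, from 245 and 246 bp to 317 and 281 bp at β-globin and from 211 and 220 bp to 301 and 285 bp at Slc25a37. Locally the unfixed medians were 432 and 432 bp at α-globin, 432 and 432 bp at β-globin and 308 and 434 bp at Slc25a37, and the 0.5% medians 566 and 564, 657 and 649, and 640 and 676 bp. At β-globin chr7:110991221-110991652, set apart above, is itself 432 bp long. It held 52 of 266 and 55 of 292 unfixed local interactions. The groups did not overlap in any of these 9 comparisons (exact permutation p = 0.333 in each, the smallest possible). The far cis medians of the unfixed libraries thus lay close to their trans medians, and those of the 0.5% libraries far above theirs. At 2% formaldehyde the local medians were 439 and 402 bp at α-globin, 491 and 436 bp at β-globin and 438 and 411 bp at Slc25a37. In far cis they were 494 and 399, 500 and 406, and 516 and 414 bp, and in trans 343 and 317, 335 and 316, and 397 and 358 bp. The local and far cis medians were thus all below those at 0.5%, and the trans medians were not.

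**Figure D5:**
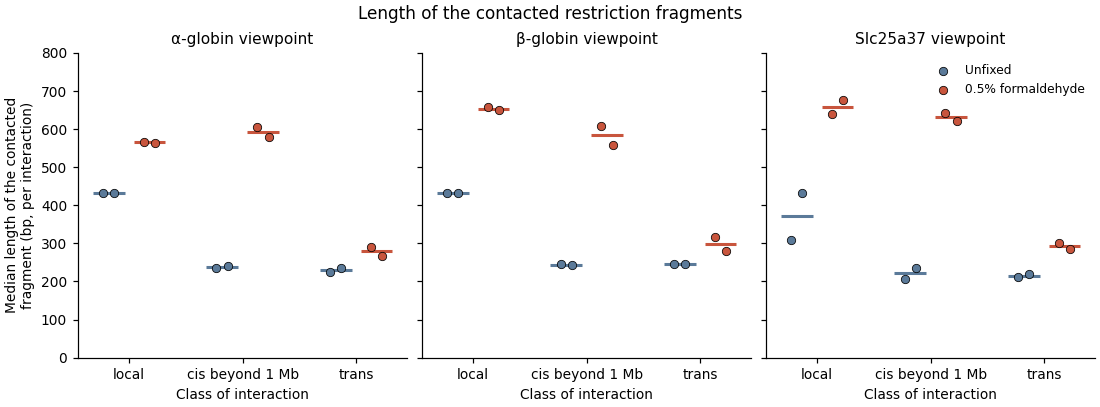
Median length in bp of the contacted restriction fragment, per interaction, for local, far cis (beyond 1 Mb) and trans interactions of each viewpoint. Points are libraries and bars the mean of 2 libraries; blue is unfixed and red 0.5% formaldehyde. Far cis points of unfixed libraries lie at 207 to 246 bp and those of 0.5% libraries at 559 to 643 bp.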

How the data were processed

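The deposited tables hold whole-number counts of unique interactions per DpnII fragment, made by the authors with PCR duplicates removed and the 2 promoters of each globin pair pooled. Their processing notes name Trim Galore, Bowtie and mm9, with no versions. Only fragments with a count in some library are listed. The 4 low-cell-number tables were not used. Counts were scaled to 100000 interactions of the library or 100000 trans interactions. Fragments and windows were tested with edgeR 4.0.16 (quasi-likelihood, library totals, mean count of 5 or more, Benjamini-Hochberg adjustment over all tested) in R 4.3.3, with DESeq2 1.42.0 as an alternative, and other values with exact two-sided permutation tests in Python 3.11.15 (SciPy 1.17.1, NumPy 2.4.6, pandas 2.3.3, Biopython 1.88, matplotlib 3.10.9). The edgeR step was checked on simulated counts with 4-fold changes: 87.6% of changed α-globin fragments, 91.5% of β-globin and 90.2% of Slc25a37 fragments were recovered. The simulated counts spread less beyond counting error than the real ones, whose fitted dispersion was 0.0949, 0.111 and 0.0151. Only part of the simulated fragments changed, up or down, whereas nearly all real ones rose. The rates therefore do not give the power of the real test. Named fragments were, per viewpoint, the 4 highest local shares at 0.5%, the 4 highest of those with 0 unfixed interactions, the 3 smallest adjusted p beyond 100 kb in cis, any called lower, and the 3 windows with the most unfixed interactions; others are said to be chosen after their values were seen or are the highest window per side. The libraries, bands and rules were chosen with earlier results of these data known. The fragments set apart at β-globin, the background from the other viewpoints and the fragment lengths were added after the tables were seen.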

Additional observations from a re-analysis of the deposited data

How the results depend on the processing

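The percentages (9 results, 87 alternatives), distance bands (27 results, 195 alternatives) and side ratios (3 results, 25 alternatives) kept their direction under every alternative tried. For these results, the alternative with the replicate number as a block equals the main value by construction. Counts of calls were compared in size only, so they could not reverse. Counts of calls rest on the scaling: with TMM, fragments called higher were 0, 11 and 0 at α-globin, β-globin and Slc25a37, with 5 lower at β-globin, and windows 5, 7 and 0, with 2 lower at β-globin. With DESeq2's size factors in edgeR they were 0, 11 and 0 fragments (5 lower at β-globin) and 0, 3 and 0 windows (5 lower at β-globin). Both scalings are taken from the tested features, yet the median log2 fold change of the fragments was still 5.32 to 5.49 with them. That of the windows was 0.378 to 1.96. A mean count of 10 or more left 166, 133 and 63 fragments and 104, 72 and 43 windows called higher, since fewer were tested, and 2 or more gave 658, 520 and 290 fragments and 690, 644 and 258 windows. With 1 count or more, 261 windows of β-globin and 183 of Slc25a37 were called, and in windows of 10 kb 282 of β-globin. Leaving out 1 library gave 243 to 292, 0 to 241 and 124 to 125 fragments and 151 to 213, 24 to 169 and 70 to 79 windows called higher, the low β-globin counts being those without a 0.5% library, where the lone library is assumed to vary like the unfixed ones; the cause was not tested.

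Mean correlations with the 2% profile were, at α-globin, 0.901 unfixed and 0.939 at 0.5% in 10 kb windows, 0.782 and 0.958 without windows within 10 kb, and 0.668 and 0.906 on ranks. At β-globin they were 0.661 and 0.944 in 10 kb windows, 0.642 and 0.941 on ranks, 0.943 at 0.5% without windows within 10 kb, and 0.845 unfixed without the fragments set apart, a choice made after seeing the data. At Slc25a37 they were 0.888 and 0.964 in 10 kb windows and 0.596 and 0.927 on ranks. With the replicate number as a block, 208, 228 and 125 fragments and 180, 92 and 79 windows were called higher. Same-numbered libraries deviated together with correlations of 0.156, -0.0515 and 0.153, which sparse unfixed counts make imprecise. The labels give no link between them beyond the number, and whether they shared a preparation was not tested.

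The precision is limited by 2 technical libraries per concentration and by the few local interactions of unfixed libraries, 63 to 292 per viewpoint.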

Other observations

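Interactions between the 3 captured loci, which lie on different chromosomes, were also counted. Within 50 kb of another viewpoint, 22 and 27 interactions were found in the unfixed libraries and 64 and 58 in the 0.5% libraries, or 7.57 and 10.2 against 30.6 and 34.5 per 100000 trans interactions. From 50 to 250 kb there were 144 and 112 unfixed and 89 and 61 at 0.5%, or 49.6 and 42.3 against 42.6 and 36.3. Within 50 kb the groups did not overlap, whereas from 50 to 250 kb they did. By pair and within 100 kb, the groups did not overlap, with 0.5% higher, from α-globin or Slc25a37 to β-globin, from α-globin to Slc25a37 and from β-globin to α-globin. They overlapped from β-globin to Slc25a37 (12.2 and 13.3 against 15.0 and 11.0 per 100000 trans interactions) and from Slc25a37 to α-globin (12.8 and 8.78 against 14.5 and 7.84), each pair resting on 1 to 22 interactions per library. The first values are sums over the 3 viewpoints, and 4 libraries of 2 concentrations allow no exact p under 0.333.

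Trans interactions of unfixed libraries were spread over the autosomes nearly by length, with observed over expected numbers from 0.935 to 1.09 (viewpoint α-globin), 0.933 to 1.16 (viewpoint β-globin) and 0.950 to 1.15 (viewpoint Slc25a37). At 0.5% the ranges were 0.924 to 1.27, 0.901 to 1.16 and 0.919 to 1.26. For α-globin the highest autosome at 0.5% was chromosome 19, and for Slc25a37 chromosome 11. The X chromosome stood at 0.809, 0.789 and 0.779 unfixed and at 0.737, 0.775 and 0.734 at 0.5%.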
